A study of Mus musculus with 4 samples.

Results

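The 9 protein kinase genes that set the length or the assembly of cilia and are described here in the retina of mouse embryos are Mak, Cilk1, Mok, Cdk20, Cdkl1, Cdkl2, Ttbk2, Stk36 and Ulk4. Their identifiers in the table are, in that order, ENSMUSG00000021363, ENSMUSG00000009828, ENSMUSG00000056458, ENSMUSG00000021483, ENSMUSG00000020990, ENSMUSG00000029403, ENSMUSG00000090100, ENSMUSG00000033276 and ENSMUSG00000040936. They were chosen by gene symbol, and all 9 of 9 were found among the 18471 genes of the deposited table. All 9 passed the filter on low counts that left 17300 genes for testing. RNA was sequenced from retinas at embryonic day 19. One group of 2 libraries is labelled wild-type. The other group of 2 is labelled Foxn3KO, from the line C57BL/6NJ-Foxn3em1(IMPC)Bay/Mmnc, genotype Foxn3-/-, in which exon 3 of Foxn3 is deleted. Foxn3 encodes a forkhead transcription factor. Each library is from the retina of 1 embryo, per the labels' protocols, and the labels name no promoter or Cre that would limit the deletion to a cell type. The study placed Foxn3 in a gene network acting on primary cilia, to which these kinases relate. They were chosen with earlier results of these data known.

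A cilium is a microtubule rod that grows from a basal body, fed by cargo trains of intraflagellar transport. Kinases act at both ends of this process. TTBK2 licenses the basal body to grow a cilium by promoting removal of the cap protein CP110. MAK and CILK1 act near the ciliary tip, where they restrain length and help trains turn around, and CDK20 is the upstream kinase that phosphorylates them. In the retina the outer segment of a photoreceptor is a modified cilium, and MAK is known as a photoreceptor kinase whose loss causes retinal degeneration. STK36 and the pseudokinase ULK4 are known from motile cilia, where they are needed for the central pair of microtubules and for organised beating.

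The starts of the 2 genes with the largest rises among the 9, Stk36 and Ulk4, are shown first, because the values below turn on them. Each sequence is the 250 bases before the gene's start, taken from RefSeq on build GRCm38.p6 and printed 5′ to 3′ on the gene's strand. The submitters' processing notes name mm39 for the counts, so no coordinate was carried between the counts and these sequences. Capitals mark matches on either strand to the half-site GTTNCC of the RFX factors, which switch on cilium genes, or to GACGC. FOXN3 is known to bind GACGC, the forkhead-like motif, besides the usual forkhead motif. Stk36 is at chr1:74601205-74601454 on the plus strand, and Ulk4 is at chr9:121277173-121277422 on the minus strand.
Stk36: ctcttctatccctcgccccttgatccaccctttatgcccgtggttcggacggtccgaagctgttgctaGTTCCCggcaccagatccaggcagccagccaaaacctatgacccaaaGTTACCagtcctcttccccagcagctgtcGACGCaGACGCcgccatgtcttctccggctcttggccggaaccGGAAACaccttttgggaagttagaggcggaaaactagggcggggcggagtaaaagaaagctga
Ulk4: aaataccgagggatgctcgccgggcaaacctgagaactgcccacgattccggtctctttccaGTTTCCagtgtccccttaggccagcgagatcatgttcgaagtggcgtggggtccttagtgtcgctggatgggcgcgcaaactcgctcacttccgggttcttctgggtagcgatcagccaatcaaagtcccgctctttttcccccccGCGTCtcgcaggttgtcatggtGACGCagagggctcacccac
The Stk36 sequence holds 3 half-sites and 2 GACGC matches, and the Ulk4 sequence holds 1 half-site and 2 GACGC matches.

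RFX factors bind best to 2 half-sites facing each other, the X-box. This was searched as GTTNCC, a gap of 0 to 3 bases, and GGNAAC, which has 10 fixed letters, on a window of 300 bases that also takes in the 50 bases after the start. None of the 9 genes held a match to all 10 letters. The search was then loosened, after the sequences had been seen, to 1 or 2 differing letters. The matches with the fewest differing letters, and nearest the start where these tied, are printed in 30 bases each for 4 kinases that rose and 2 that did not pass the test, with the match in capitals.
Stk36: ctgacgccGTTTCTAGGCAACtgaagactc
Mok: gtctggcgGTTGCTAAGGCGACaggaatac
Cdk20: gacgcgttATTGCTAGGCAACgcttgcagg
Ulk4: tctcgcagGTTGTCATGGTGACgcagaggg
Ttbk2: tgatgctccTTTCCCGGTAACtcgccctct
Cdkl1: cggcgcgGTTCCCATGGGGATCgcagcagt
These lie on GRCm38.p6 at chr1:74601451-74601480 (plus strand), chr12:110840912-110840941 (minus), chr13:64432517-64432546 (plus), chr9:121277182-121277211 (minus), chr2:120850619-120850648 (minus) and chr12:69790705-69790734 (minus), in that order. Of the 10 letters, 9 matched in Stk36, Ttbk2 and Cdkl1, and 8 matched in Mok, Cdk20 and Ulk4.

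Such matches lay in kinases that rose, in kinases that did not pass the test and in Cilk1, the 1 called lower. The best matches of Mak and of Cilk1, not printed, held 8 of the 10 letters. RefSeq gave 13 start windows for the 9 genes, since some have more than 1 start. With 1 differing letter allowed, 4 of the 13 windows held the pair, against 5.44% of the 32851 windows of the whole table. These were 3 of the 9 genes, since 2 overlapping windows of Ttbk2 hold the same match. With 2 allowed, 9 of 13 windows (8 of 9 genes) held it, against 34.4%. The single half-site was in 10 of 13 windows (8 of 9 genes), against 45.3%, and GACGC was in 8 of 13 (7 of 9 genes), against 27.2%. Over the 300 bases, Stk36 and Ulk4 each held 3 GACGC matches, and 2.26% of all windows held at least 3. These 2 genes were picked for their rises, and the cut of 3 was not planned. No conclusion is drawn from that share, nor from the shares of the loosened pair, whose allowance was set after the sequences had been seen. The forkhead motif TGTTTAC was in none of the 13 windows and in 3.65% of all windows. A match is a description of letters and not a measured binding site.

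Depth and labels were checked once for the whole series. Libraries held 22543531 to 29360129 counts. The library labelled wild-type replicate 1 stood apart in sex-linked RNA, with 83073 counts of Xist against 9 to 19 in the others and none of Ddx3y, Eif2s3y or Kdm5d. Sex is therefore uneven between the groups, and the counts of kinases and of related genes called are also given without that library. Foxn3 itself was 98.7 ± 1.55 CPM (counts scaled to library size; SD, n = 2) under the wild-type label and 144 ± 0.108 CPM under the Foxn3KO label. Foxn3 was thus higher, not lower, under the Foxn3KO label. Counts per gene cannot show the loss of 1 exon, so the labels are unchecked here and every direction below rests on them. The retinal transcription factor genes Rax and Pax6 were detected in every library, at 386 to 410 CPM and 844 to 865 CPM, and neither was called. Other retinal markers did change: Sox2, Six3 and Six6 were called higher, by 0.17, 0.18 and 0.14 on the log2 scale, and Isl1 lower, with -0.23.

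Of the 9 kinases, 6 rose under the Foxn3KO label, 1 fell and 2 did not pass the test. The test was edgeR's quasi-likelihood test on the counts, with p-values adjusted over all 17300 genes and a threshold of 0.05. Across all tested genes 12.3% were called higher and 9.66% lower. With scaling to total counts that balance turned over, from 55.9% to 48.2% of the calls being higher, while the 9 kinases again had 6 calls higher and 1 lower. A rise of at least 1 on the log2 scale was called for 3 of the 9, beside 2.86% of all genes. DESeq2 called 6 of the 9, all higher, where it called 14.1% of all genes. The median log2 fold change of the 9 was 0.71, against -0.0047 over all genes tested. Since the 9 were chosen with earlier results of these data known, these shares are no independent test of the set. Without wild-type replicate 1 the same test again called 7 of the 9, 6 of them higher and 1 lower. In that fit, where 24.3% of all genes were called, the lone wild-type library is assumed to vary like the others. The p-values of the main fit rest on 1 spread per gene, pooled over both groups of 2 embryos and moderated across genes. Without wild-type replicate 1 the Foxn3KO pair alone gives that spread, so the calls of that fit rest on that pair. On a mean over genes, replicates differed more in the wild-type pair. A chi-square of the replicate counts, given their depths, averaged 10.1 per gene in the wild-type pair and 1.89 in the Foxn3KO pair. Sex-linked genes were kept in that mean, and Xist alone had 83073 and 17 counts in the wild-type pair. The mean therefore does not give the spread of a typical gene.

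**Figure D1:**
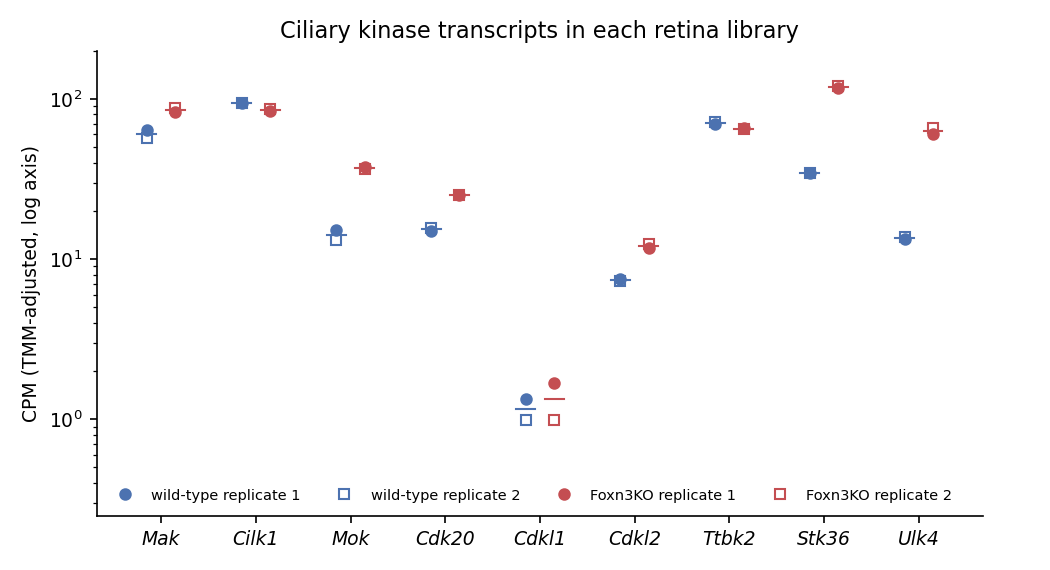
Level of each of the 9 kinases in the 4 libraries, in CPM on a log axis. Blue marks wild-type and red Foxn3KO, filled circles are replicate 1, open squares replicate 2, and short bars are group means. Stk36 and Ulk4 lie furthest apart between the groups (34.4 against 120 CPM and 13.5 against 63.4 CPM), and the groups of Cdkl1 overlap.

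The 2 motile-cilium kinases rose most. Stk36 is the vertebrate relative of the fly Hedgehog kinase Fused. It had 34.3 and 34.4 CPM under the wild-type label, and 118 and 121 CPM under the Foxn3KO label. Each pair of replicates nearly coincided, and the groups were far from overlapping. The rise was 3.48-fold, a log2 fold change of 1.80 ± 0.0527 (SE; edgeR adjusted p = 2.42e-14). Of all genes tested, 1.47% rose more steeply by fold.

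Ulk4, whose loss in mice gives hydrocephalus with faulty ependymal cilia, had 331 and 372 counts under the wild-type label and 1772 and 1478 under the Foxn3KO label. In CPM this was 13.4 and 13.7 against 60.9 and 66.0. Both libraries labelled Foxn3KO thus lay well above both others. On the log2 scale the difference was 2.23 ± 0.0701 (SE; edgeR adjusted p = 6.15e-14), a 4.69-fold rise and the steepest of the 9. Its 95% interval of 2.08 to 2.38 did not overlap that of Stk36, 1.69 to 1.91. The counting of strand is not given in the sources used here, and the abundant gene Ctnnb1 overlaps Ulk4 on the opposite strand in GENCODE M21. Ctnnb1 had 1067 to 1089 CPM and a log2 fold change of -0.01 (edgeR adjusted p = 0.861).

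The RCK family, whose 3 members Mak, Cilk1 and Mok share a kinase domain related to both CDKs and MAP kinases, did not change as one: Mok and Mak rose, by different amounts, and Cilk1 did not. Mok, the least studied of them, had 15.2 and 13.2 CPM under the wild-type label and 37.6 and 36.6 CPM under the Foxn3KO label. The groups did not overlap, and the wild-type pair differed by 1.15 times between replicates. On the log2 scale the difference was 1.38 ± 0.0827 (SE; edgeR adjusted p = 5.92e-10), or 2.61-fold. Leaving out either wild-type library moved it between 1.29 and 1.49.

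Mak, the photoreceptor member, had 64.1 and 56.8 CPM under the wild-type label and 82.6 and 87.5 CPM under the Foxn3KO label. Both of the latter were higher than either of the former. The rise was 1.41-fold, a log2 fold change of 0.49 ± 0.061 (SE; edgeR adjusted p = 1.03e-05). Against wild-type replicate 2 alone it was 0.58 and against wild-type replicate 1 alone 0.40, and the wild-type pair differed by 1.13 times.

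Some markers of photoreceptor precursors rose beside Mak. Of 11 markers tested, 5 were called higher, none lower and 6 did not pass, with a list median log2 fold change of 0.11. Among all tested genes 12.3% were called higher. Their summed level was 1625 to 1650 CPM under the wild-type label and 1724 to 1726 CPM under the Foxn3KO label. The 3 with the smallest p were Sag, the arrestin of rods (log2 fold change 0.99), Gngt2, a cone transducin subunit (0.46), and Nrl, the rod fate factor (0.28). Thrb, Prdm1 and Otx2 were among those that did not pass, with -0.18, -0.05 and -0.02. Their part in the Mak result was not tested. In whole retina, a shift in the number of cells of a type and a shift in RNA per cell cannot be told apart.

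Cilk1, broadly expressed and also known as Ick, was the 1 kinase called lower, by a small margin. It had 94.0 and 94.0 CPM under the wild-type label and 83.6 and 86.7 CPM under the Foxn3KO label. The groups did not overlap, but 60.4% of all genes tested shared that property. On the log2 scale the difference was -0.14 ± 0.0494 (SE; edgeR adjusted p = 0.0462). DESeq2 did not call it (adjusted p = 0.161), and neither did the edgeR fits without Foxn3KO replicate 1 (adjusted p = 0.409) or without Foxn3KO replicate 2 (adjusted p = 0.171).

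Because lengths differ, the 3 relatives were set against each other in FPKM, which scales fragments by gene length and library size. Of their summed FPKM, Mok made up 21.2% and 19.9% under the wild-type label and 37.9% and 36.1% under the Foxn3KO label. Cilk1 went from 38.7% and 41.8% to 24.8% and 25.3%. Mak held between 37.3% and 40.1% in all 4 libraries. The family's summed FPKM was 20.98 and 19.46 against 29.1 and 29.7. Mok was thus present at 0.549 and 0.476 times Cilk1 under the wild-type label and at 1.52 and 1.43 times under the Foxn3KO label. No test was run on these shares, since an exact two-sided permutation of 2 against 2 cannot go below p = 0.333.

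**Figure D2:**
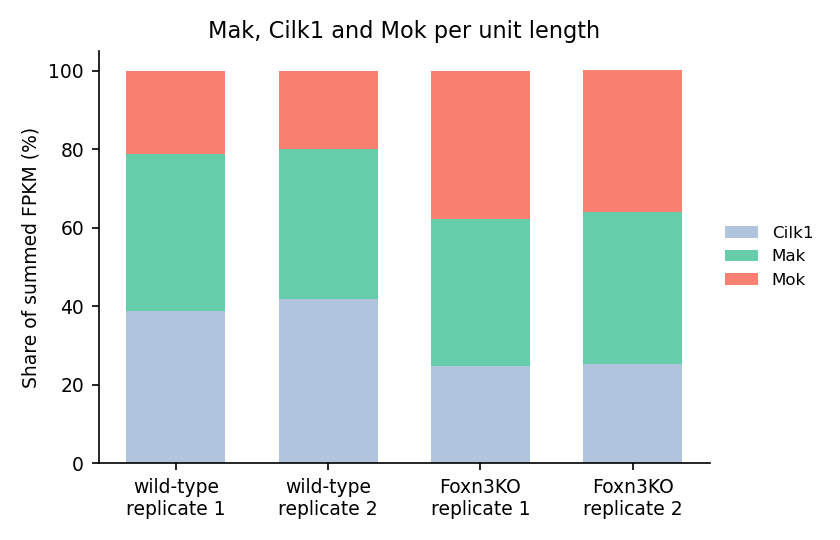
Share of Mak, Cilk1 and Mok in their summed FPKM, in percent, for each of the 4 libraries. The Mok share is 19.9% to 21.2% in wild-type and 36.1% to 37.9% in Foxn3KO, the Cilk1 share is smaller in Foxn3KO, and the Mak share spans 37.3% to 40.1% over all 4.

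Cdk20, which phosphorylates MAK and CILK1, also rose. It had 15.1 and 15.7 CPM under the wild-type label and 25.1 and 25.3 CPM under the Foxn3KO label. Replicates lay close together and the groups did not overlap. On the log2 scale the difference was 0.71 ± 0.0818 (SE; edgeR adjusted p = 4.22e-06), a 1.64-fold rise.

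The 2 CDKL kinases differed in how well they could be measured. Cdkl2, a CDK-like kinase expressed in neurons, had 7.50 and 7.25 CPM under the wild-type label and 11.7 and 12.5 CPM under the Foxn3KO label. Both values of the second pair were higher, and on the log2 scale the difference was 0.71 ± 0.116 (SE; edgeR adjusted p = 2.06e-04). Cdkl1, linked to cilium length, had only 33 and 27 counts under the wild-type label and 49 and 22 under the Foxn3KO label. The groups overlapped. Its log2 fold change of 0.24 (edgeR adjusted p = 0.664) had a 95% interval of -0.47 to 0.96, so the direction of any change was not resolved. Counts were low, and the Foxn3KO pair differed by 1.71 times in CPM. Without Foxn3KO replicate 1 its sign turned, to -0.23.

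Ttbk2 had 69.8 and 71.6 CPM under the wild-type label and 66.1 and 64.5 CPM under the Foxn3KO label. The second pair was slightly lower without overlap, and the difference did not pass the test (log2 fold change -0.11, edgeR adjusted p = 0.14, unadjusted 95% interval -0.22 to -0.0022). In GENCODE M21 the gene Cdan1 overlaps Ttbk2 on the same strand, so reads of the 2 may be hard to assign there. Cdan1 had a log2 fold change of -0.10 (edgeR adjusted p = 0.222).

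**Figure D3:**
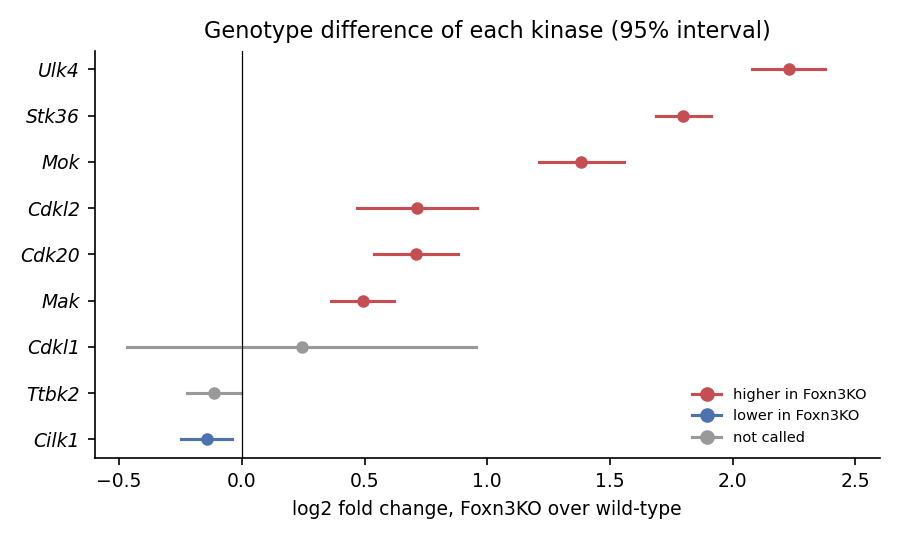
Log2 fold change of each kinase, Foxn3KO over wild-type, with its 95% interval from the edgeR fit. Red marks kinases called higher, blue called lower and grey not called. The values run from -0.14 for Cilk1 to 2.23 for Ulk4, and the interval of Cdkl1 is the widest, -0.47 to 0.96.

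The order of the kinases by length-scaled level changed between the groups. Under the wild-type label Cilk1 was first with 8.13 ± 0.0128 FPKM (SD, n = 2), followed by Mak with 7.93 ± 0.67, and these overlapped. Ttbk2 (6.17 FPKM), Stk36 (5.32), Mok (4.16), Cdk20 (2.26), Ulk4 (1.58), Cdkl2 (1.21) and Cdkl1 (0.567) followed, each separate from the next. Under the Foxn3KO label Stk36 was first with 18.5 ± 0.372 FPKM (SD, n = 2). Mak (11.2 FPKM) and Mok (10.9) came next and overlapped, as did Ulk4 (7.44) and Cilk1 (7.37) after them. Ttbk2 (5.71 FPKM), Cdk20 (3.71), Cdkl2 (1.99) and Cdkl1 (0.651) closed the order. Stk36 and Ulk4 together made up 18.1% and 18.9% of the summed FPKM of all 9 under the wild-type label, and 38.1% and 38.9% under the Foxn3KO label. Among all tested genes, Stk36 stood above 50.5% by FPKM in the first group and above 81.7% in the second, while Ulk4 stood above 29.6% and 58.5%.

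Genes that start beside these kinases were compared with them. Rnf25, an E3 ubiquitin ligase gene that starts within 5 kb of Stk36 on the opposite strand, had 46.5 and 45.8 CPM under the wild-type label and 51.9 and 49.2 CPM under the Foxn3KO label. This did not pass the test (log2 fold change 0.13, edgeR adjusted p = 0.122), while Stk36 rose by 1.80. The noncoding gene Gm34655, which starts within 5 kb of Ulk4 on the opposite strand, had 22 and 25 counts against 69 and 68. It rose by a log2 fold change of 1.56 ± 0.282 (SE; edgeR adjusted p = 5.72e-04), next to the 2.23 of Ulk4. Fbxo9, the opposite-strand neighbour of Cilk1, had a log2 fold change of 0.06 (edgeR adjusted p = 0.515), and the noncoding AV039307 beside Ttbk2 had -0.46 from at most 33 counts (edgeR adjusted p = 0.4). No gene of the table met this rule for the other 5 kinases.

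The proteins that these kinases work with were then followed by role. Of 6 genes listed as partners of the CDK20 to CILK1 axis, 5 rose and none fell, with a list median log2 fold change of 0.41. Among all tested genes 12.3% were called higher and 9.66% lower. Kif3a, the kinesin-2 motor subunit that CILK1 phosphorylates, had 171 and 171 CPM under the wild-type label and 259 and 260 CPM under the Foxn3KO label, a log2 fold change of 0.61 ± 0.0419 (SE; edgeR adjusted p = 4.74e-09). Its motor partner Kif3b rose by 0.50 on the log2 scale and their adaptor Kifap3 by 0.30. Kif17, the homodimeric kinesin-2, rose by 2.10 from only 25 and 50 counts. Tbc1d32, the BROMI protein gene that works with CDK20, rose by 0.31, and did not pass without Foxn3KO replicate 2 (adjusted p = 0.0621). Fam149b, the sixth, had -0.08 (edgeR adjusted p = 0.318). Without wild-type replicate 1 the list again had 5 calls, all higher.

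Around TTBK2, whose own gene did not pass, 7 of 10 genes of its recruitment and of the centriole cap rose and none fell. The list median was 0.26, and 12.3% of all tested genes were called higher. Kif24, a kinesin that holds CP110 at the centriole, had 28.0 and 30.6 CPM under the wild-type label and 44.0 and 44.1 CPM under the Foxn3KO label, a log2 fold change of 0.59 (edgeR adjusted p = 3.74e-06). The distal appendage genes Cep89 and Fbf1 rose by 0.45 and 0.37. Cep164, the appendage protein that recruits TTBK2, rose by 0.37 (edgeR adjusted p = 7.78e-04), from wild-type replicates of 46.2 and 55.1 CPM. Without wild-type replicate 1 the list again had 7 calls, all higher, and without either Foxn3KO library it had 5.

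Of 8 genes listed for STK36, ULK4 and the Hedgehog pathway, 3 rose, 2 fell and 3 did not pass, and the list median was 0.03. For comparison, 12.3% of all tested genes were called higher and 9.66% lower. The 3 that rose belong to motile cilia. Kif27, the kinesin that binds STK36 in motile cilia, went from 70 and 90 counts under the wild-type label to 1770 and 1353 under the Foxn3KO label, a log2 fold change of 4.30 ± 0.0893 (SE; edgeR adjusted p = 2.42e-16). Kif9, a central pair kinesin, rose by 4.05, and the central pair protein gene Spag16 by 2.38. The 3 that did not pass were Gli3 (log2 fold change 0.0017), Sufu (0.06) and Kif7 (-0.24). The 2 that fell, named after their values were seen, are transcription factors of the Hedgehog pathway, in which Fused acts in flies. Gli1, itself a Hedgehog target, went from 161.5 and 162.1 CPM to 96.8 and 96.4 CPM, a log2 fold change of -0.74 (edgeR adjusted p = 7.92e-10). Gli2 had -0.27 (edgeR adjusted p = 0.0045) and was not called without Foxn3KO replicate 1 (adjusted p = 0.0725). Without wild-type replicate 1, 3 of the list were called higher and 3 lower.

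Of 7 relatives of the 9 kinases, 1 rose and 1 fell, with a list median of -0.09. This lay near the 21.9% of all tested genes called in either direction. Cdkl4, a CDK-like kinase, had 36 and 36 counts under the wild-type label and 383 and 248 under the Foxn3KO label. Its log2 fold change of 3.13 (SE 0.173, edgeR adjusted p = 2.08e-10) was larger than that of any of the 9. Ttbk1, the neuronal relative of Ttbk2, had a log2 fold change of -0.22 and was called lower (edgeR adjusted p = 0.0113). It was not called by DESeq2 (adjusted p = 0.0657) or without either Foxn3KO library. Ulk1, an autophagy kinase, had -0.15 and did not pass (edgeR adjusted p = 0.0926), but passed without wild-type replicate 1 (adjusted p = 2.1e-05). In that fit 1 of the list was called higher and 2 lower, and without either Foxn3KO library Cdkl4 was the 1 call left.

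Of 16 other kinases of cilia and centrosomes, 4 rose and 1 fell, and the median log2 fold change was 0.02. Over all tested genes 21.9% were called in either direction. Nek4 rose by 0.59 on the log2 scale, from 40.2 and 40.9 CPM to 60.7 and 61.5 CPM (edgeR adjusted p = 4.39e-07). Nek2, a centrosome separation kinase, rose by 0.36, and Dyrk2, a regulator of cilium structure, by 0.21 (not called without Foxn3KO replicate 2, adjusted p = 0.104). Plk1 rose by 0.19 and was not called without either Foxn3KO library, and Plk4, the kinase that starts centriole duplication, was called lower with a log2 fold change of -0.25 (edgeR adjusted p = 0.0043). The calls in this list numbered 5 without wild-type replicate 1, 4 of them higher, and 3 without Foxn3KO replicate 2.

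**Figure D4:**
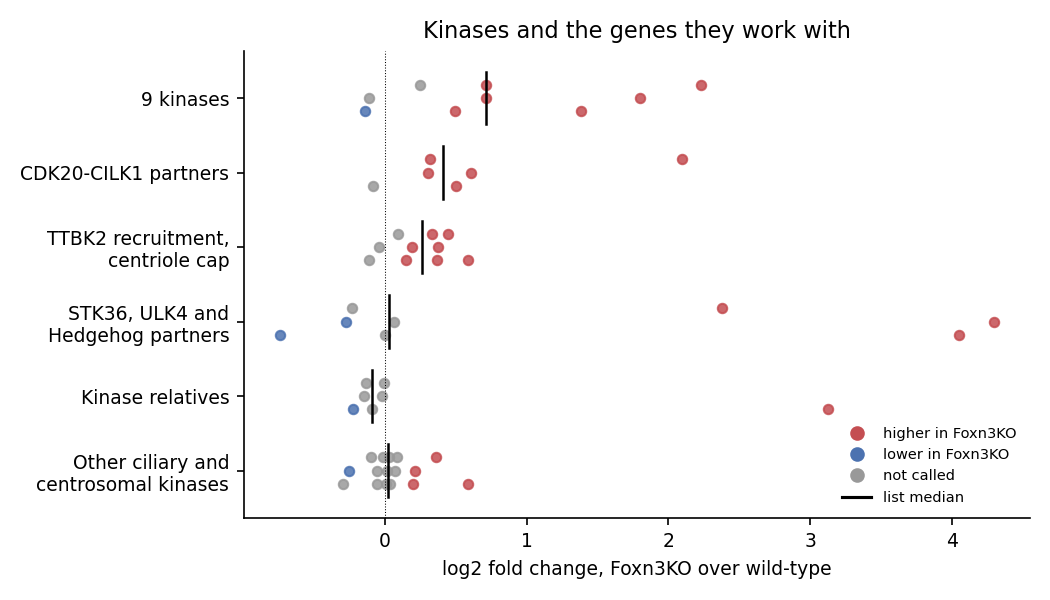
Log2 fold change, Foxn3KO over wild-type, of the 9 kinases and of 5 lists of related genes, 1 point per gene. Red marks genes called higher, blue called lower and grey not called, and the black bar is the list median. The median is 0.71 for the 9 kinases and between -0.09 and 0.41 for the lists, while Kif27, Kif9, Cdkl4 and Spag16 lie far to the right.

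Regulators and markers of ciliated cells, and markers of nearby tissues, were measured beside the kinases. The shares of all tested genes to set beside the counts below are 12.3% called higher and 9.66% lower. Foxj1, the master regulator of motile cilia, rose by 4.45 on the log2 scale from 191 and 226 to 5154 and 3914 counts, Rfx2 rose by 1.41 and Rfx3 by 0.40. Of 7 markers of multiciliated cells, 4 were tested and 3 of them rose: Foxj1, Ccno (3.14) and Deup1 (1.73), of which Deup1 had 38 counts or fewer in every library. The fourth, Myb, was not called and made up most of the summed level, and Cdc20b, Gmnc and Mcidas were not among the genes tested. The summed level of the 4 was 460 to 467 CPM under the wild-type label and 630 to 633 CPM under the Foxn3KO label. Of 6 choroid plexus markers 4 were tested, 2 higher and 2 lower, with sums of 9.40 and 12.5 against 12.3 and 12.2 CPM. None of 6 airway and nasal markers was among the genes tested. Lens markers were called higher in 6 of 6 tested and differed within the wild-type pair, with sums of 4.72 and 57.6 CPM against 239 and 237 CPM. Of 6 pigment epithelium markers tested, 2 were lower and none higher, with sums of 49.4 and 72.7 against 40.4 and 41.0 CPM. The part of these tissues in the kinase results was not tested. The rises of Stk36 and Ulk4 were 1.80 and 2.21 against wild-type replicate 2 alone, and 1.80 and 2.24 against wild-type replicate 1 alone.

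The authors' deposited table was set beside these values. In the authors' deposited table the log2 fold changes are 2.22 for Ulk4, 1.80 for Stk36, 1.37 for Mok, 0.68 for Cdk20, 0.64 for Cdkl2 and 0.48 for Mak, each with an adjusted p of at most 6.52e-04. For Cilk1 the authors' deposited table gives -0.13 with an adjusted p of 0.155, for Ttbk2 -0.10 with 0.372, and for Cdkl1 0.05 with 0.857.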

How the data were processed

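One deposited table of the series was used. It holds raw whole-number counts per gene and library, deposited by the authors without normalization, and each count column is named in a sample's label. It also holds FPKM values, computed by the authors, which equalled the counts times a factor per library and gene to a relative difference of 4.41e-09. The authors' log2 fold changes, p-values and adjusted p-values were only copied, and the deposited baseMean column, a mean signal, was left unused. The submitters' processing notes name the build mm39 and DESeq2. The aligner, counter, annotation, use of strand and use of molecular identifiers are not given in the sources used here. Per the labels' protocols the kit was strand-specific with identifier adaptors.

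From the counts, 18471 genes were read after 1 repeated identifier of 18472 rows was dropped. Genes were filtered with filterByExpr (17300 left), and scaled with TMM. The main test was the quasi-likelihood F test of edgeR 4.0.16, run under R 4.3.3 (genotype as the only term, two-sided, Benjamini-Hochberg over all tested genes, threshold 0.05). A standard error is the absolute log2 fold change over the root of F. On simulated data with 17300 genes, 200 of them changed, the test found 98.5% of the changed genes and also called 9 others. The simulation gave both groups the same fixed dispersion. Its changes were only 2-fold or 4-fold, in genes above a count limit. It therefore does not measure how the test performs on smaller changes or on groups of unequal spread, as may be the case here. Alternatives were RLE and total count scaling, no filter, limma-voom (limma 3.58.1), a minimum of 10 counts in each library, DESeq2 1.42.0, the earlier edgeR fit, a replicate block, an adjusted p under 0.1, a minimum log2 fold change of 1, and each library left out. The kinases, lists and rules were chosen with earlier results of these data known. Named were all 9 kinases, the 3 genes of each list with the smallest p, tested genes that overlap a kinase or start within 5 kb of its start (GENCODE M21), and Foxn3, Foxj1, Rfx2, Rfx3 and Xist. Kifap3, Tbc1d32, Fam149b, Cep164, Gli1, Gli2, Gli3, Sufu, Kif7, Plk1, Plk4, Six6, Rax, Pax6, Thrb, Prdm1, Otx2 and Myb were named after their values were seen. Fam149b1 was matched as Fam149b through RefSeq synonyms. Intervals cover 95%. One retinal marker and the sum over the retinal markers are not reported here. Figures were drawn with matplotlib 3.10.9.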

Additional observations from a re-analysis of the deposited data

How the results depend on the processing

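In every setting run except the minimum fold, 6 of the 9 kinases were called higher, and the call of Cilk1 was the 1 that was lost. The count of kinases called was 6 to 7 when each library was left out, and 3 with a minimum log2 fold change of 1 (Mok, Stk36 and Ulk4), as that setting requires. Over the tested settings with all libraries the log2 fold change ran from 0.472 to 0.494 for Mak, 1.36 to 1.39 for Mok, 0.690 to 0.712 for Cdk20, 1.78 to 1.80 for Stk36 and 2.21 to 2.23 for Ulk4. Over the fits without a library, Cdkl1 ran from -0.234 to 0.541 and turned sign without Foxn3KO replicate 1 (-0.2342), and Ctnnb1 ran from -0.0225 to 0.0007, positive without Foxn3KO replicate 2.

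Of all 17300 tested genes 3795 were called, 2433 with DESeq2, 568 with a minimum log2 fold change of 1, and 2323 to 5067 when a library was left out (2328 without Foxn3KO replicate 1, 2323 without Foxn3KO replicate 2). The cause of the difference between the tools was not tested. Among relatives of the kinases 2 were called, 1 with DESeq2 and 1 to 3 without a library, and among other ciliary kinases 5, with 3 to 7 without a library. Whether the replicate numbers pair the samples was not settled. The difference between replicates correlated at -0.0083 between the groups over 17300 genes. This cannot show that pairing is absent, since the Foxn3KO replicates differed little (mean chi-square per gene 1.89). The mean in wild-type, 10.1, includes sex-linked genes such as Xist. With the replicate block 4222 genes and the same number of kinases, 7, were called, and Ulk1 passed (adjusted p = 0.032). Depth limits Cdkl1, with 22 to 49 counts a library.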
